A study of Caenorhabditis elegans with 8 samples.

Results

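The cuticlins and their relatives with a zona pellucida (ZP) domain are apical matrix proteins of *Caenorhabditis elegans*. The genes described here were chosen by name, as every array row with 1 gene symbol of the form cut, cutl or noah followed by a number, together with let-653. The choice gave 37 genes of the 25478 measured: 6 cut genes, 28 cutl (cuticlin-like) genes, noah-1, noah-2 and let-653. Each was read by 1 probe set, and no pair of them had identical values. A row that lists cutl-8 under a pair of gene identifiers fell outside this choice and did not pass the test (log2 difference 0.14 ± 0.16 SE, limma adjusted p = 0.580).

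A ZP domain lets secreted or membrane-bound proteins polymerise outside the cell, after a protease cuts them free, and the same domain builds the vertebrate egg coat. In *C. elegans* such proteins line the apical surface of epidermis and of narrow tubes, where they shape the temporary matrix that is laid down before each new cuticle, and some stay in the cuticle itself, for example in the ridges called alae. Cuticlins were first known as the part of the cuticle that stays insoluble because its proteins are cross-linked through tyrosines. The names do not guarantee the domain: cut-2 encodes a cuticlin with alanine-rich repeats and no ZP domain.

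The study took RNA from whole worms on day 1 of adulthood, grown on *Escherichia coli* OP50 without treatment. The groups were 4 samples of mir-71(n4115), a strain with a mutant allele of the microRNA gene mir-71, and 4 of wildtype (N2), and each sample was read on 1 Affymetrix array. The deposited values are log2 signals, on which 1 unit is a doubling, and a difference is always mir-71(n4115) minus wildtype. Whether the numbered samples of a group were separate cultures is not stated, so the tests cover the spread among these 8 samples, which may be technical.

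Array medians lay between 5.20 and 5.30. The adult collagen gene col-19 read 10.89 to 11.16 in the mutants and 10.66 to 11.09 in the wild type, and the yolk protein gene vit-6 read at least 12.40 on every array, so both adult transcripts were bright throughout. Wild-type replicate 4 stood apart. Over all tested probe sets its correlation was 0.986 to 0.993 with the 4 mutant arrays and 0.961 to 0.976 with wild-type replicates 1 to 3, so results are given with and without it. In whole worms, fewer cells of a type and less RNA per cell cannot be told apart.

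In the mutants, cut-4, noah-2 and noah-1 rose, by 3.76-fold, 2.20-fold and 1.89-fold. The other 34 did not pass the threshold, an adjusted p of 0.05 in limma over all 26192 tested probe sets, and 0 fell. At an unadjusted p under 0.05, 0 of the 37 were lower, beside 3280 of all 25478 genes. The 3 that rose are 8.11% of the 37, beside 0.616% of all genes that rose. Over all genes 1.84% changed and 1.22% fell. The mutant mean was higher for 25 of the 37 and lower for 12, where 51.8% of all genes were higher. The median difference was 0.20 over the 37 and 0.02 over all genes, with quartiles of the 37 at -0.05 and 0.42.

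**Figure D1:**
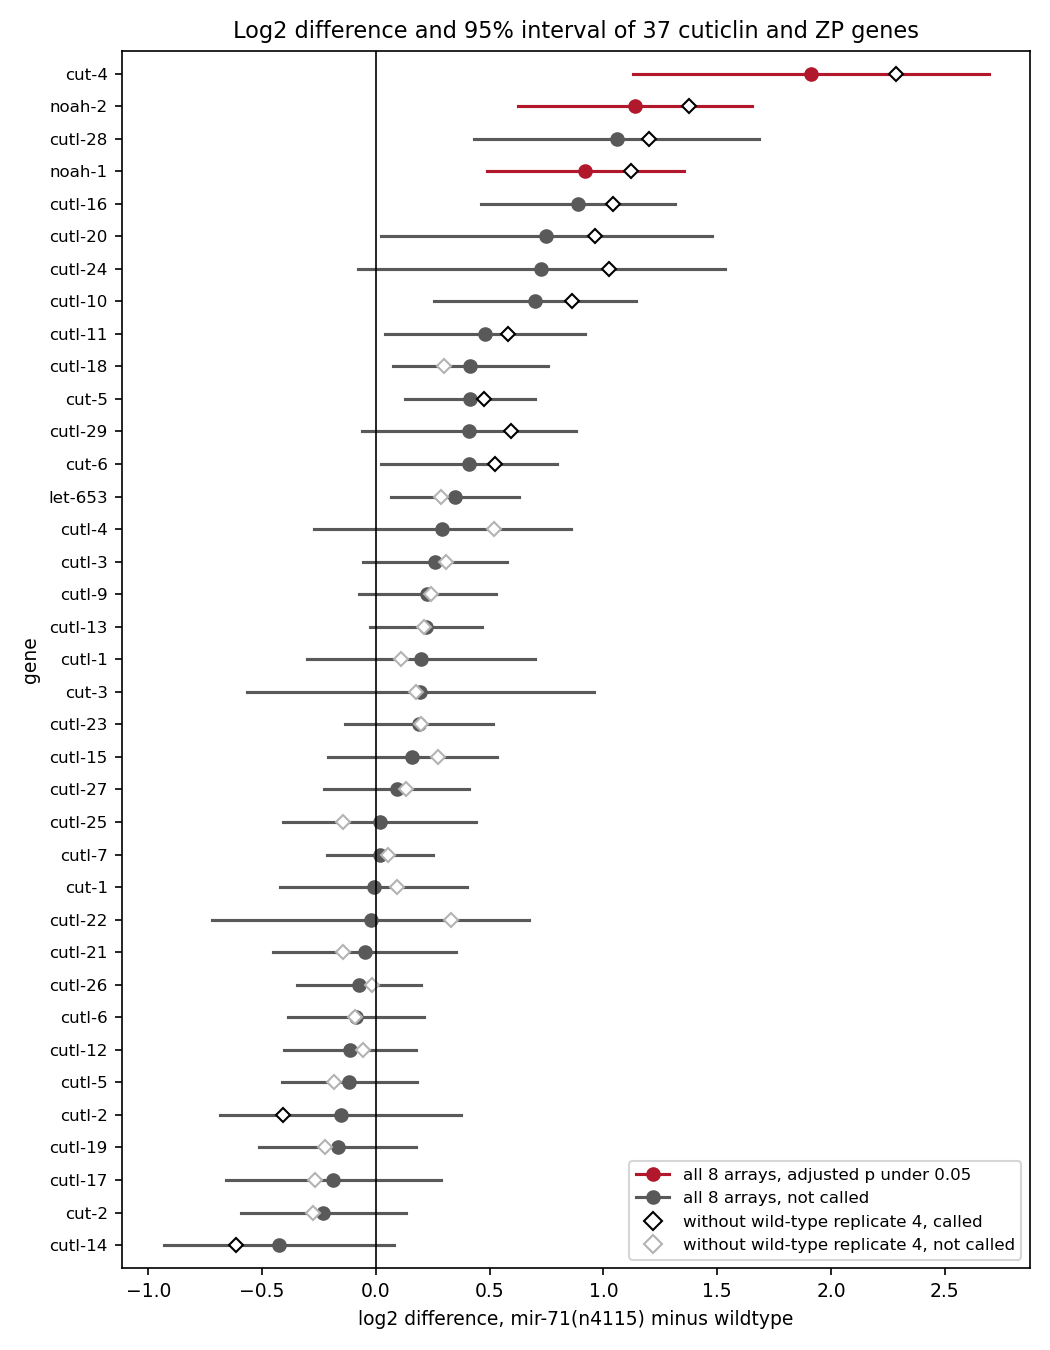
Log2 difference, mir-71(n4115) minus wildtype, for each of 37 cuticlin and ZP genes, with its 95% interval from all 8 arrays (circles and lines) and the difference without wild-type replicate 4 (diamonds). cut-4, noah-2 and noah-1 are red, having passed an adjusted p of 0.05 on 8 arrays, and cutl-14 at -0.43 is the lowest.

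The strongest change was in cut-4 (E04D5.3, chromosome II), a cuticlin gene. It read 7.43, 7.73, 7.52 and 7.79 in mutant replicates 1 to 4, against 5.21, 5.75, 5.03 and 6.82 in wild-type replicates 1 to 4. The groups did not overlap, and wild-type replicate 4 was the wild-type array nearest to the mutants. The difference was 1.91 ± 0.35 (SE, n = 4 per group; limma, adjusted p = 0.0316). Without wild-type replicate 4 it was 2.28 ± 0.18 (adjusted p = 9.80e-05), while without any 1 of the other 7 arrays it was 1.69 to 1.97 and missed the threshold, with adjusted p from 0.0758 to 0.105.

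The noah genes, named after the *Drosophila* matrix gene nompA, encode ZP proteins that hold the embryonic epidermis together under muscle force and are needed for moulting. noah-2 (F52B11.3, chromosome IV) read 8.66, 8.86, 8.82 and 8.73 in the mutants, against 7.24, 7.64, 7.30 and 8.34 in the wild type. noah-1 (C34G6.6, chromosome I) read 10.45, 10.43, 10.36 and 10.49 in the mutants, against 9.17, 9.35, 9.41 and 10.11 in the wild type. For both genes every mutant array was above every wild-type array, and wild-type replicate 4 was the nearest to the mutants.

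noah-2 differed by 1.14 ± 0.23 (SE; limma, adjusted p = 0.0426) and noah-1 by 0.92 ± 0.19 (adjusted p = 0.0493). Both calls lay close to the threshold. Without wild-type replicate 4 the differences were 1.38 and 1.12, and leaving out any 1 other array ended both calls (adjusted p from 0.110 to 0.154). The mutant arrays agreed closely with each other, with an SD of 0.09 for noah-2 and 0.06 for noah-1, against 0.51 and 0.41 in the wild type. Over the 37 genes the median SD was 0.19 in the mutants, 0.29 in the wild type and 0.19 in wild-type replicates 1 to 3 alone, close to the 0.17, 0.28 and 0.19 over all genes.

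**Figure D2:**
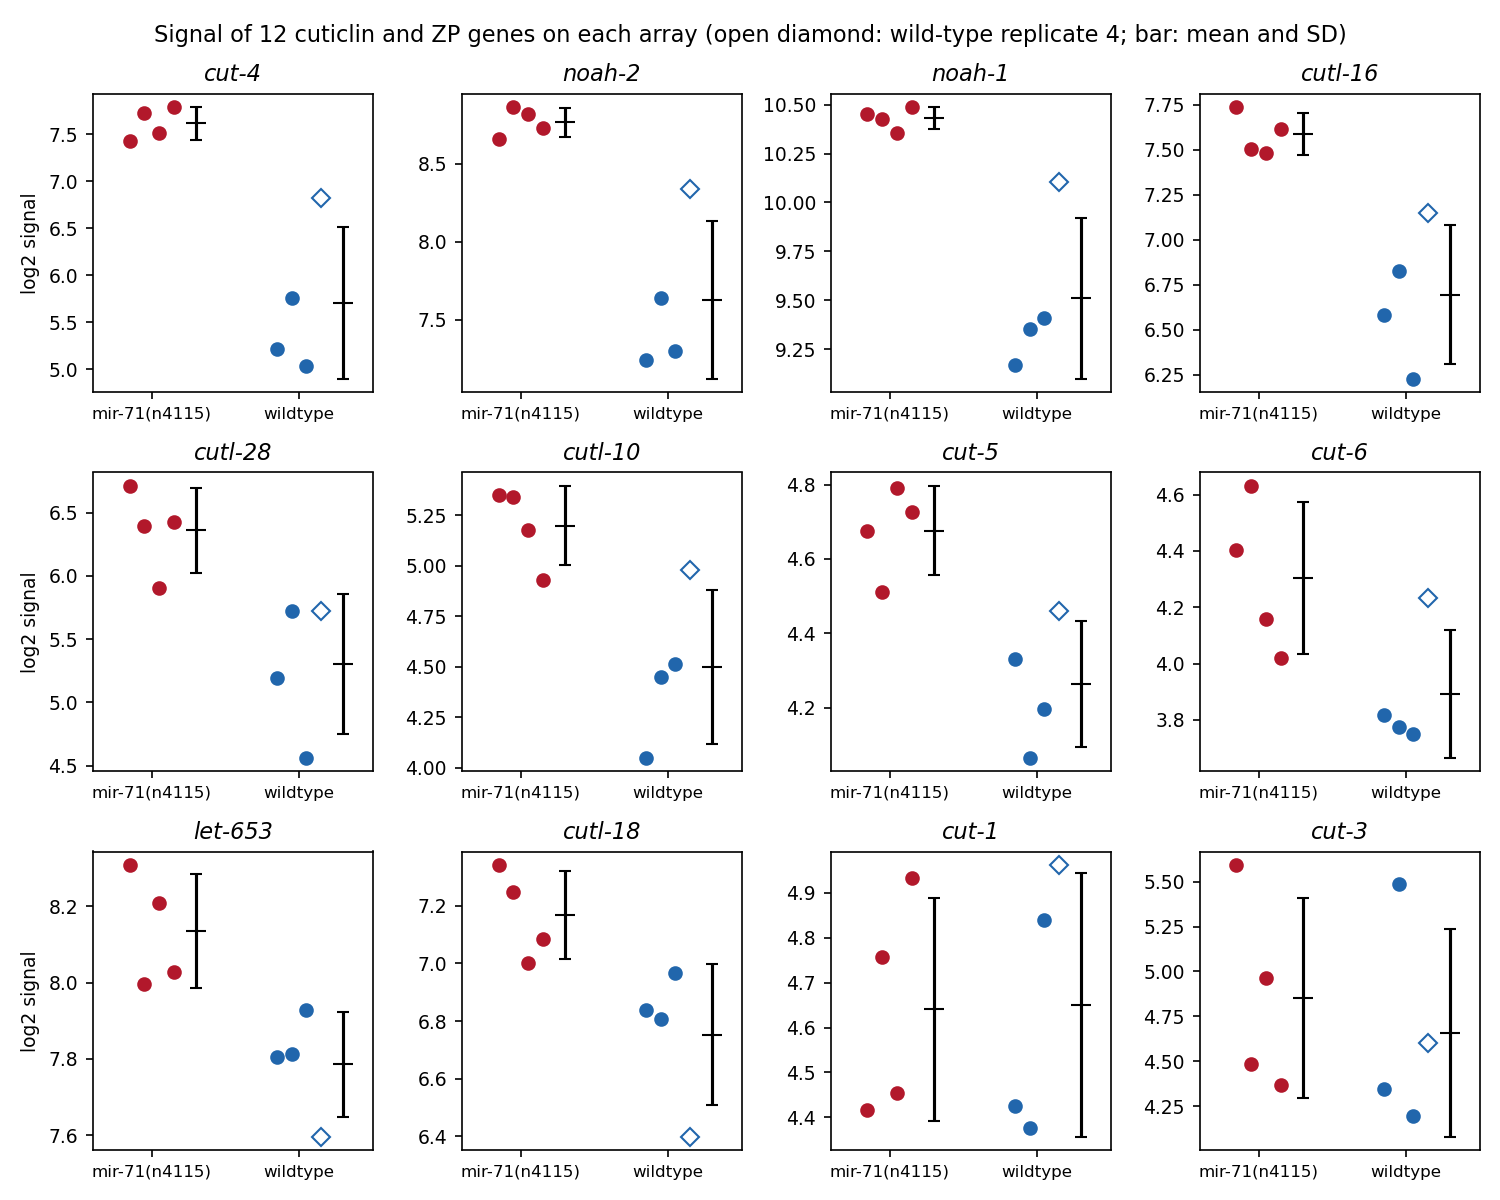
Log2 signal of 12 genes on each array, with mir-71(n4115) in red and wildtype in blue, each gene on its own axis; bars show the group mean and SD, and the open diamond is wild-type replicate 4. For cut-4, noah-2 and noah-1 that array is the highest of the wild type yet under every mutant array, and for let-653 and cutl-18 it is the lowest of all.

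The other cut genes did not pass the test. CUT-1 is a component of the alae of dauer larvae, the resistant larval stage, and cut-1 read 4.42, 4.76, 4.45 and 4.93 in the mutants, against 4.42, 4.38, 4.84 and 4.96 in the wild type. The groups overlapped fully, and the 95% interval of the difference, -0.42 to 0.40, includes 0 and reaches up to a 1.32-fold higher level in the mutants. CUT-3 and CUT-5 shape the alae of the first larval stage. cut-3 read 5.59, 4.49, 4.96 and 4.37 in the mutants, against 4.35, 5.49, 4.19 and 4.60 in the wild type, a scatter within each group (SD 0.56 in the mutants and 0.58 in the wild type) larger than the difference of 0.20 ± 0.34 (SE; limma, adjusted p = 0.731).

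cut-5 read 4.68, 4.51, 4.79 and 4.73 in the mutants, against 4.33, 4.07, 4.20 and 4.46 in the wild type. The groups were separate but the difference, 0.41 ± 0.13 (SE; limma, adjusted p = 0.107), missed the threshold over all genes. CUT-6, needed for the body shape and alae of dauer larvae, is encoded by a gene whose signals overlapped between groups: cut-6 read 4.40, 4.63, 4.16 and 4.02 in the mutants, against 3.82, 3.77, 3.75 and 4.23 in the wild type (difference 0.41 ± 0.17 SE, adjusted p = 0.172). cut-2 was dim on every array, at 2.2 to 2.5 in the mutants and 2.31 to 2.99 in the wild type, and its difference of -0.23 ± 0.16 (SE; adjusted p = 0.367) did not pass. Detection above background could not be judged from these values, so a low reading may hold no transcript signal.

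LET-653 is a ZP protein that keeps the lumen of the excretory duct and of the forming vulva open. let-653 (C29E6.1, chromosome IV) read 8.31, 8.0, 8.21 and 8.03 in the mutants, against 7.81, 7.81, 7.93 and 7.60 in the wild type. The groups did not overlap, and here wild-type replicate 4 was the lowest of all 8 arrays. The difference of 0.35 ± 0.12 (SE; limma, adjusted p = 0.134) did not pass, and without that array it was 0.29 (adjusted p = 0.0864).

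Of the 28 cutl genes 0 passed with all 8 arrays, and 6 had an unadjusted p below 0.05. In the whole family 12 genes were below that p, the 3 called ones included. All 12 were higher in the mutants, 32.4% of the family beside 13.2% of all genes. Among cutl genes the differences ran from -0.43 to 1.06, with 18 higher, 10 lower and a median of 0.17.

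cutl-16 came nearest to a call. It read 7.74, 7.51, 7.48 and 7.62 in the mutants, against 6.58, 6.83, 6.23 and 7.15 in the wild type, with no overlap. The difference was 0.89 ± 0.19 (SE; limma, adjusted p = 0.0509), just outside the threshold. It was called with quantile normalisation (adjusted p = 0.0487), with array medians subtracted (adjusted p = 0.0413), with dim probe sets left out (adjusted p = 0.0478), with array weights (adjusted p = 6.87e-04) and with the trend over gene length removed (adjusted p = 0.0483). It missed the threshold with a variance trend and robust fit (adjusted p = 0.0649) and without any 1 of the 7 arrays other than wild-type replicate 4 (adjusted p from 0.0888 to 0.152). Without wild-type replicate 4 the difference was 1.04 (adjusted p = 0.00109). noah-1, just inside the threshold at 0.0493, missed it with quantile normalisation (adjusted p = 0.0515).

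cutl-28 had the highest difference of the cutl genes. It read 6.71, 6.39, 5.91 and 6.43 in the mutants, against 5.19, 5.73, 4.56 and 5.73 in the wild type, a difference of 1.06 ± 0.28 (SE; limma, adjusted p = 0.0849). Its groups were separate, with an SD of 0.33 in the mutants and 0.55 in the wild type. cutl-10 read 5.35, 5.34, 5.17 and 4.93 in the mutants, against 4.05, 4.45, 4.51 and 4.98 in the wild type, where replicate 4 overlapped the mutants (0.70 ± 0.20 SE, adjusted p = 0.0946).

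cutl-18 followed the pattern of let-653. It read 7.34, 7.25, 7.0 and 7.08 in the mutants, against 6.84, 6.81, 6.97 and 6.40 in the wild type, with replicate 4 the lowest (0.42 ± 0.15 SE; limma, adjusted p = 0.138). cutl-11 ranged from 5.17 to 5.97 in the mutants and from 4.91 to 5.47 in the wild type (0.48 ± 0.19 SE, adjusted p = 0.164). The lowest difference was that of cutl-14, at 4.96 to 5.49 in the mutants and 5.09 to 6.19 in the wild type (-0.43 ± 0.22 SE, adjusted p = 0.246).

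Of the cutl genes with the highest signals, cutl-15 read 6.89 to 7.37 in the mutants and 6.69 to 7.29 in the wild type (0.16, limma adjusted p = 0.549), cutl-29 6.06 to 6.73 and 5.72 to 6.52 (0.41, adjusted p = 0.234), and cutl-2 5.80 to 6.08 and 5.30 to 6.43 (-0.15, adjusted p = 0.692). Signals of different probe sets do not rank the amounts of different transcripts. The remaining 19 cutl genes had differences from -0.19 to 0.75 and adjusted p from 0.181 to 0.967.

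In 9 of the 37 genes all 4 mutant arrays were above all 4 wild-type arrays, and in 0 were they all below. Over all genes 6% were separated with the mutants above and 5.01% with the mutants below. The 9 were cut-4, noah-2, noah-1, cutl-16, cutl-28, cut-5, let-653, cutl-18 and cutl-13, the last named after its values were seen, at 5.00 to 5.15 in the mutants and 4.70 to 5.00 in the wild type, a gap smaller than the rounding. In 6 of the 9 wild-type replicate 4 lay above the mean of the other wild-type arrays, and in let-653, cutl-18 and cutl-13 below it.

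Signal level and chromosome were not used in the choice of genes. Of the 37, 18 were brighter than the median gene of the array set and 19 dimmer. Of the 18, 3 rose (beside 0.816% of all brighter genes) and 13 were higher in the mutants (beside 6921 of 12739). Their median difference was 0.41, against 0.05 for all brighter genes. Of the 19 dimmer genes 12 were higher (beside 6288 of 12739) and the median difference was 0.19, against -0.0039 for all dimmer genes. The 37 were spread over all 6 chromosomes, with 7 on I, 9 on II, 4 on III, 7 on IV, 5 on V and 5 on X, and the median difference on each lay between 0.10 (III) and 0.41 (X). Over all measured genes of the X chromosome the median was 0.13.

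Some of these genes lie close together in the WBcel235 annotation, and the differences of such pairs stood as follows. let-653 and cutl-27 are neighbours with 0 protein-coding genes between them, and cutl-27 read 3.06 to 3.54 in the mutants and 2.97 to 3.35 in the wild type (difference 0.09). cutl-28, at 1.06, has 1 protein-coding gene between it and cutl-26, which differed by -0.07. cut-2, at -0.23, and cutl-1, at 0.20, have 3 between them. cutl-27, cutl-26 and cutl-1 were named for their position.

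Without wild-type replicate 4 more genes were called. Of the 37, 12 then rose (32.4%, beside 19.1% of all genes) and 2 fell (5.41%, beside 17.8%). Background calls were frequent here: 36.9% of all genes changed, in place of 1.84%. The 12 were cut-4, noah-2, noah-1, cutl-16, cutl-28, cutl-10, cut-5, cut-6, cutl-11, cutl-20, cutl-24 and cutl-29. cutl-20 and cutl-24, named after their values were seen, differed by 0.96 (adjusted p = 0.0315) and 1.02 (adjusted p = 0.0221) without it, against 0.75 and 0.73 with it. The 2 that fell were cutl-14, at -0.62 (adjusted p = 0.0233), and cutl-2, at -0.41 (adjusted p = 0.0216).

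For 13 of the 14 genes called without it, wild-type replicate 4 was nearer to the mutant mean than to that of the other wild-type arrays, as it was for 87.9% of all genes called in that fit. Over all 37 genes it was nearer to the mutants in 26 (70.3%), beside 72.2% of all genes. Its signed difference from the mean of the other wild-type arrays had a median of 0.19 over the 37 and 0.01 over all genes, where genes that differ in opposite directions offset each other. The median size of that difference, whatever its sign, was 0.41 over the 37 and 0.36 over all genes. The mutants lay a median of 0.14 above this array, higher in 24 of the 37, beside 0.01 and 13308 of 25478 over all genes. With 1 array these are values without a test. cut-4 still stood 0.79 higher in the mutants than in this array, noah-2 0.43 and noah-1 0.32. cutl-18 stood 0.77 higher, where this array was the lowest of the wild type. The largest distance went the other way, at -1.08 for cutl-22, where this array was the highest of all 8.

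**Figure D3:**
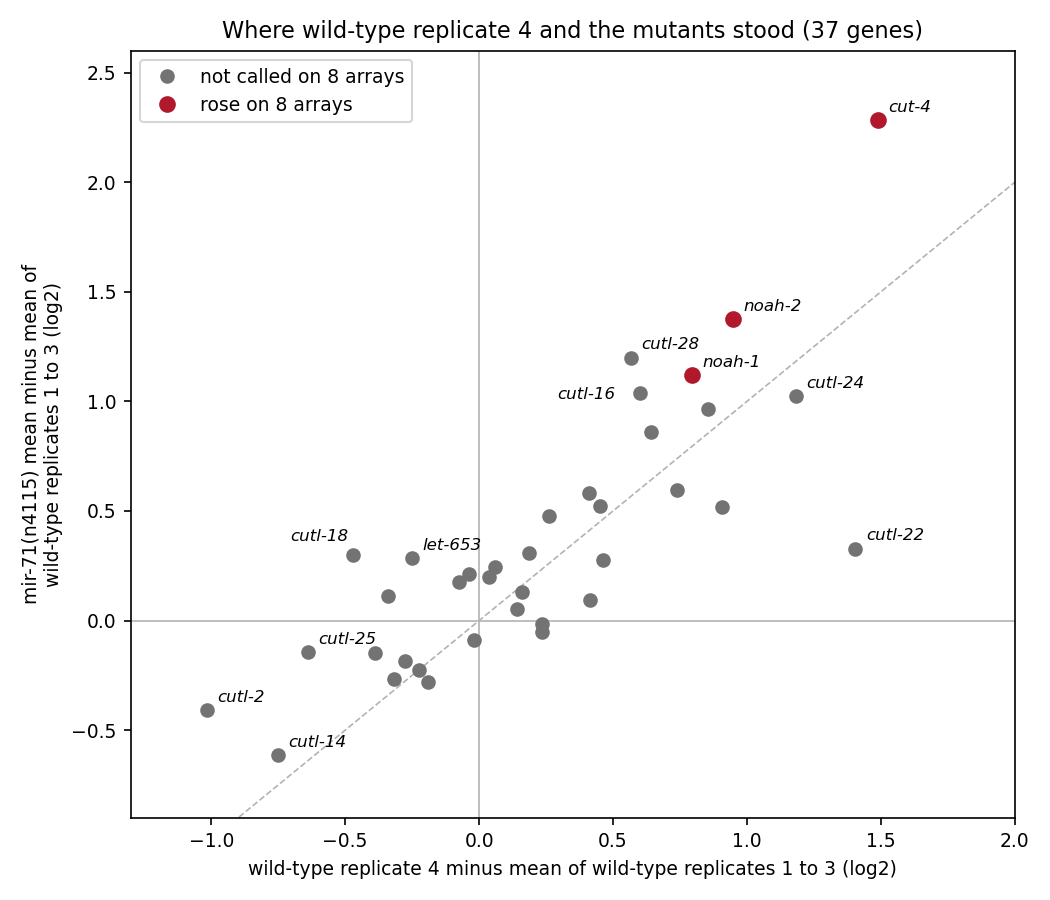
For each of 37 genes, the mutant mean (vertical axis) and wild-type replicate 4 (horizontal axis), both as log2 distance from the mean of wild-type replicates 1 to 3, which both axes share. On the dashed line the mutants and replicate 4 stand equally far; cut-4, noah-2 and noah-1 lie above it to the right, let-653 and cutl-18 lie to the left of 0, and cutl-22 lies at 1.41 on the horizontal axis and 0.33 on the vertical.

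Genes that work with these proteins were read from lists of known matrix and moulting genes, which were chosen with earlier results of these data known. At an unadjusted p under 0.05 in limma, 3371 of all 25478 genes were higher and 3280 lower. Counts below that p in these lists are in either direction. Of 3 other ZP domain genes 0 were called, with 2 below an unadjusted p of 0.05 and a median difference of 1.10. fbn-1, a fibrillin-like matrix gene with a ZP domain, read 7.92 to 8.19 in the mutants, against 6.55 to 6.80 in wild-type replicates 1 to 3 and 7.89 in replicate 4 (difference over all arrays 1.10 ± 0.27 SE; limma, adjusted p = 0.0760). Of 7 partners in the temporary matrix 0 were called (5 below an unadjusted p of 0.05), 6 were higher and the median was 0.88. Among them sym-1, which encodes a leucine-rich repeat protein of that matrix, had the lowest p (9.83 in the mutants and 8.69 in the wild type, adjusted p = 0.0674).

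Of 8 genes for cross-linking and cutting matrix proteins 0 were called (1 below an unadjusted p of 0.05) and the median was 0.14. nas-37, an astacin protease used to shed the old cuticle, came nearest (8.81 ± 0.10 in the mutants and 8.05 ± 0.32 in the wild type, SD, n = 4 each; limma, adjusted p = 0.0517). bli-3, the dual oxidase that cross-links cuticle tyrosines, differed by 0.39 (adjusted p = 0.194), and bli-4, a proprotein convertase, by 0.04 (adjusted p = 0.870), both named outside the rule for their roles. All 9 measured transcription factors of moulting and epidermis were higher, with a median of 0.75; 0 were called and 7 lay below an unadjusted p of 0.05. bed-3 had the lowest p among them (0.77 ± 0.19 SE, adjusted p = 0.0736).

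Moulting components were mixed, with 0 of 10 called (4 below an unadjusted p of 0.05), 5 higher and a median of 0.02. mlt-3 had their lowest p and was lower, at 7.65 to 7.85 in the mutants and 8.65 to 8.82 in wild-type replicates 1 to 3, with replicate 4 at 7.91 (-0.79 ± 0.19 SE over all arrays; limma, adjusted p = 0.0749). Of 5 measured furrow collagens of the cuticle, 0 were called (2 below an unadjusted p of 0.05) and the median was 0.15, with dpy-2 nearest (0.74, adjusted p = 0.0509). Of 6 collagens of the adult cuticle 0 were called (2 below that p), all were higher and the median was 0.23, with bli-1 nearest (0.79, adjusted p = 0.104). lin-29 and dpy-10 were listed but not matched to a row.

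Without wild-type replicate 4, where 19.1% of all genes rose and 17.8% fell, these lists held more calls. Among the other ZP domain genes 2 of 3 rose, fbn-1 among them (1.40, limma adjusted p = 1.17e-04), and among the partners in the temporary matrix 6 of 7 rose. Of the genes for cross-linking and cutting 4 of 8 rose, and of the transcription factors 8 of 9. Of the furrow collagens 2 of 5 rose, and of the adult collagens 2 of 6. Moulting components went both ways, with 3 of 10 risen and 2 fallen, and in each of the other lists 0 fell.

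**Figure D4:**
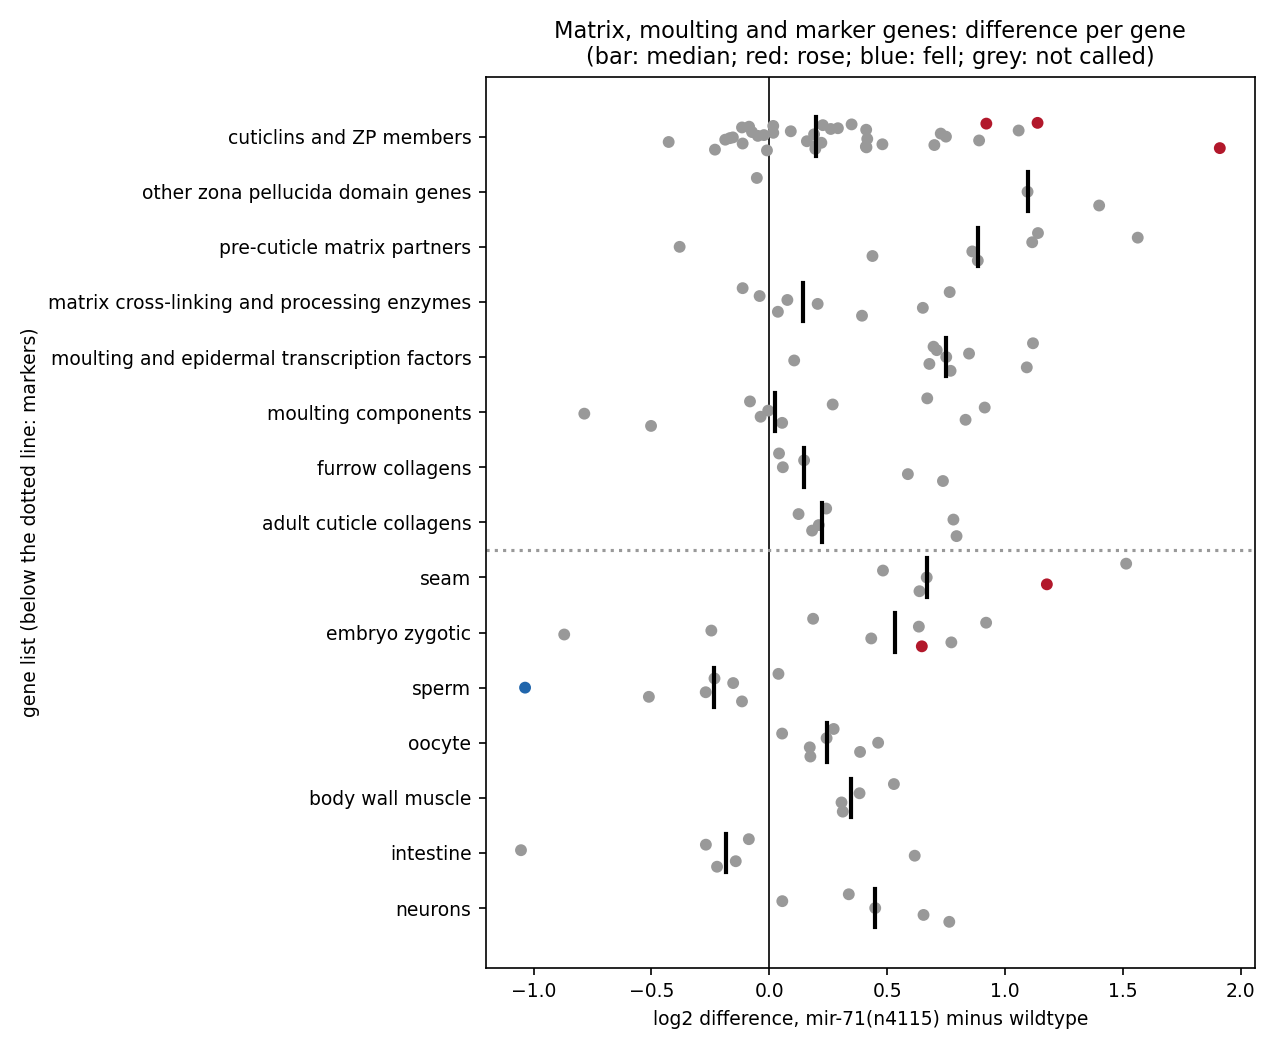
Log2 difference, mir-71(n4115) minus wildtype, of each gene in the cuticlin and ZP family, in 7 lists of matrix and moulting genes and in 7 lists of tissue markers, with the median of each list as a bar. Called genes are red where they rose and blue where they fell: cut-4, noah-1, noah-2, ceh-16 and cnd-1 rose, and spe-11 fell.

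Markers of tissues that whole worms can hold in different amounts were read beside these. For counts below an unadjusted p of 0.05, the background is the same 3371 higher and 3280 lower of 25478 genes. Of 5 measured markers of the seam, the epidermal cells that lie under the alae, ceh-16 rose by 1.18 ± 0.22 (SE; limma, adjusted p = 0.0325), 0 fell and all 5 were higher, with a median of 0.67. The mean signal of this list was 7.19 to 7.40 in the mutants, 6.09 to 6.32 in wild-type replicates 1 to 3 and 7.11 in wild-type replicate 4. Adult hermaphrodites carry embryos, and of 8 zygotic embryo markers cnd-1 rose by 0.65 (limma adjusted p = 0.0485), 0 fell and 6 were higher. In this list 6 lay below an unadjusted p of 0.05, and the median was 0.53. One of those 6, end-3, was lower (-0.87, adjusted p = 0.0865), and hlh-1 was lower too (-0.25, adjusted p = 0.242). Both were named outside the rule for their direction. The mean of the embryo list was 7.46 to 7.54 in the mutants, 7.03 to 7.21 in wild-type replicates 1 to 3 and 7.43 in replicate 4.

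Every neuron marker (0 of 5 called, 2 below an unadjusted p of 0.05, median 0.45), body wall muscle marker (0 of 4 called, 0 below that p, median 0.35) and oocyte marker (0 of 7 called, 1 below that p, median 0.24) was higher in the mutants, without a call. Their lowest p were those of rab-3 (0.65, limma adjusted p = 0.103), unc-54 (0.38, adjusted p = 0.238) and lin-41 (0.38, adjusted p = 0.174). Of 7 sperm markers spe-11 fell (-1.04, limma adjusted p = 0.0402) and 6 were lower, with a median of -0.23. The sperm list mean was 4.32 to 4.49 in the mutants, 4.50 to 4.76 in wild-type replicates 1 to 3 and 5.03 in replicate 4, the highest of all 8 arrays. Of 6 intestine markers 0 were called, 5 were lower and the median was -0.18. The 2 below an unadjusted p of 0.05 went opposite ways. ges-1, a gut esterase gene, had the lowest p of the list, at 7.26 to 7.71 in the mutants and 7.86 to 8.93 in the wild type (-1.05 ± 0.23 SE, limma adjusted p = 0.0534). elt-2, named outside the rule for its direction, was higher (0.62, adjusted p = 0.118). Without wild-type replicate 4 the seam list had 4 of 5 risen, the embryo list 4 of 8 risen and 1 fallen, the neuron list 4 of 5 risen, the muscle list 3 of 4 risen and the oocyte list 2 of 7 risen. The sperm list then had 3 of 7 fallen and the intestine list 1 of 6 risen and 2 fallen, beside the same 19.1% and 17.8% of all genes. The part of these tissues in the cuticlin and ZP values was not tested. The lowest reading in these marker lists was 2.31, in the sperm list, where the lowest mean signal of any gene was 1.60. Detection of the markers could not be judged from these values.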

How the data were processed

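The authors deposited log2 signals of 29317 probe sets on 8 arrays, made with RMA and Partek 6.6 per the submitters' processing notes. RMA makes arrays alike, so a shift common to most genes is lost. The log2 scale was read from the range of the values. Genes were named through the platform annotation (26192 probe sets, of which 25546 with 1 symbol), with symbols updated through RefSeq (WBcel235) for 25495. The brightest probe set stood for a gene.

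All 8 arrays entered 1 fit without covariates (limma 3.58.1, R 4.3.3, lmFit then eBayes, 2-sided), with Benjamini-Hochberg adjustment over 26192 probe sets and a threshold of 0.05. The fit was tested on simulated data with independent noise for each probe set and array. That test does not cover an array that resembles the other group, as wild-type replicate 4 did. The median SE was 0.17, and 4 arrays a group limit the precision. Samples were grouped by their titles. Members and lists were chosen with earlier results of these data known. The rule for named genes takes every called member, all cut and noah genes, let-653, and the cutl genes with the 5 lowest p, the 5 highest signals and the extreme differences. Each list adds its 2 risen and 2 fallen genes of lowest p or, with none called, the gene of lowest p. In the seam list elt-5 is another name of egl-18 and nhr-73 was not matched.

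Alternatives were other normalisations, a replicate block, a filter on dim probe sets, other variance models, removal of the trend with gene length, a stricter threshold and each array left out.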

Additional observations from a re-analysis of the deposited data

Results flagged for a closer look

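In 4 of 74 groups of 4 arrays, 1 array lay farther from the other 3 than Dixon's 95% limit allows, and all 4 times it was wild-type replicate 4. Chance gives about 1 in 20 such groups. That array had 5.21 for cutl-22, where the mutants had 3.93 to 4.33 and the other wild-type arrays 3.74 to 3.93. For cut-6 it had 4.23, where the mutants had 4.02 to 4.63 and the other wild-type arrays 3.75 to 3.82. For cutl-29 it had 6.52, where the mutants had 6.06 to 6.73 and the other wild-type arrays 5.72 to 5.84. cutl-2 was low, at 5.30, where the mutants had 5.80 to 6.08 and the other wild-type arrays 6.25 to 6.43.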

How the results depend on the processing

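The 3 calls were not stable to the set of arrays. The count of called genes was 0 to 14 when each of the 8 arrays was left out in turn. It was 14 without wild-type replicate 4, where 36.9% of all genes changed. Without any other array it was 0, where 0.149% to 0.699% of all genes changed, in place of 1.84%. The median difference stayed at 0.16 to 0.25 in these fits. With a replicate block the count was 1, where 1.35% of all genes changed. That call was cut-4 (limma, noah-1 adjusted p = 0.0599, noah-2 adjusted p = 0.0584, cutl-16 adjusted p = 0.0611). The count was 16 with array weights (14 rose and 2 fell, where 41.1% of all genes changed), and 0 at an adjusted p of 0.01, which 0.0903% of all genes passed. With the length trend removed and wild-type replicate 4 left out together, chosen after seeing the data, 11 were called (8 rose and 3 fell, where 33.8% of all genes changed). cut-5, cut-6 and cutl-29, which rose when only that array was left out, were not called in this fit (limma, adjusted p = 0.0683, 0.148 and 0.271). The median difference was 0.20 as reported, 0.11 with the length trend removed and 0.14 with wild-type replicate 4 also out. let-653 was then at 0.18 and 0.049 and cutl-29 at 0.14 and 0.21, in place of 0.35 and 0.41, without a call in any of these. The median was 0.35 without the dimmest 40% of probe sets, which leaves 25 of the 37 genes. The difference of cut-1 was -0.01 as reported, -0.11 to 0.094 with 1 array left out, 0.21 with array weights, 0.025 with the length trend removed and 0.14 with that trend and wild-type replicate 4 both out. That of cut-3 was -0.052 to 0.47 with 1 array left out. Deviations of same-numbered samples correlated at 0.19, -0.11, 0.37 and 0.27 for numbers 1 to 4, so the numbers were not taken as pairs. The cause of these changes was not tested. Every gene had 1 probe set, so a median over probe sets was not run.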
